A study of Mus musculus with 4 samples.

Results

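Rnaseh1, Rnaseh2a, Rnaseh2b, Rnaseh2c, Trex1, Samhd1 and Adar encode enzymes that clear RNA-DNA hybrids, stray DNA or double-stranded RNA. Their 7 rows were taken by symbol from single-cell count matrices of 32285 genes, and all 7 symbols were found. Of these, 6 had at least 50 unique molecular identifiers (UMIs, each counting 1 captured transcript) over the T cells, and Trex1 had 6 UMIs in all. The cells were live CD45, CD3 and CD8 positive T cells sorted from tumours of B16F10, a mouse melanoma line, grown in C57BL/6J mice aged 6 to 8 weeks. The groups were those labelled sgArid1a, with 2 libraries, and sgScr, set here as the control, with 2 libraries; Arid1a encodes a subunit of a chromatin remodelling complex. Neither the cells that received a guide nor the number of mice behind a library is stated, so the p-values measure only the spread between these libraries, which may be technical. The study's title names R-loops, STING and type I interferon as its subject.

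An R-loop is an RNA-DNA hybrid with the other DNA strand displaced. RNase H1 cuts the RNA strand of such hybrids, and RNase H2, a complex of a catalytic A subunit with B and C subunits, cuts hybrids and also removes single ribonucleotides built into DNA. Trex1 degrades cytosolic DNA, Samhd1 breaks down deoxynucleoside triphosphates, and Adar edits adenosine to inosine in double-stranded RNA. In human, inherited loss of RNase H2 subunits, TREX1, SAMHD1 or ADAR causes Aicardi-Goutières syndrome, an interferon disease. Proliferating T cells need RNase H2 and a large nucleotide supply for DNA replication, and Samhd1 and Adar are known as interferon-induced genes in many cell types.

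After filtering there were 38186 T cells, 10667 and 12737 in sgArid1a and 7632 and 7150 in sgScr, with 38997087 and 80811453 UMIs in sgArid1a and 35567835 and 32086960 UMIs in sgScr. Cd3e stood at 874 and 947 CPM (UMI counts per 1000000 UMIs of the summed cells) in sgArid1a and 875 and 877 CPM in sgScr, and Cd8a at 658 and 702 CPM in sgArid1a and 524 and 548 CPM in sgScr, as the sort labels say. Arid1a had 74.1 and 72.5 CPM in sgArid1a T cells, against 84.9 and 93.7 CPM in sgScr T cells. It was lower by log2 -0.26 ± 0.065 (SE; edgeR quasi-likelihood test, adjusted p = 0.0042; 0.10 without sgScr replicate 2), and with the guide-bearing cells unstated this level does not check the labels. Summed markers of melanoma stayed between 0.769 and 0.891 CPM in sgArid1a and between 0.467 and 0.759 CPM in sgScr. Of all distinct barcodes, 786 occurred in more than 1 library.

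Promoter windows were available for 5 of the 7 genes from RefSeq (GRCm38.p6, 300 bases each, reaching past the annotated start), and Rnaseh1 and Rnaseh2b had none. They were searched on both strands for an E2F motif (TTTNNCGC, in 5.17% of 32851 windows), an interferon regulatory factor motif (GAAANNGAA, in 8.56%), the cell cycle element CHR (TTTGAA, in 17.9%) and CCAAT (in 37.4%). These motifs were chosen with the sequences in view. The stretches below are shown because the E2F and interferon motifs are those linked in textbooks to the contrasts that follow, the cell cycle and the interferon response; capitals mark the motif match.
Rnaseh2a, E2F, chr8:84966039-84966068, minus strand: ctgcagttttcGCGGAAAAcgcgcgctggg
Adar, interferon motif before the start site of its window 3, chr3:89730468-89730497, plus strand: gGAAAAGGAActtcctcacagggcggagag
Adar, interferon motif after the same start site, chr3:89730738-89730767, plus strand: ttttcaaggaaacGAAAGTGAActctgggg
The Rnaseh2a match lies 19 bases after its start site and is read on the opposite strand. The Adar matches lie 249 bases before and 33 bases after the start site. The Rnaseh2a window also held CCAAT, as did both other Adar windows, which overlap and hold the same single match. The Rnaseh2c window and 1 of 2 Trex1 windows held CHR. The Samhd1 window held none of the 4 motifs. A match is a description of letters and not a bound site.

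Over all T cells, the 3 RNase H2 subunit genes and Rnaseh1 were higher in sgArid1a than in sgScr, and Samhd1 and Adar were lower. Rnaseh2b, whose product is the auxiliary B subunit that also binds the replication clamp PCNA, had 58.8 and 63.4 CPM in sgArid1a, against 34.4 and 35.1 CPM in sgScr. The difference was log2 0.84 ± 0.06 (SE; edgeR adjusted p = 9.66e-08). Rnaseh2c, the other auxiliary subunit, had 135 and 149 CPM in sgArid1a, against 103 and 106 CPM in sgScr. It was higher by log2 0.47 ± 0.06 (SE; edgeR adjusted p = 1.67e-05). Rnaseh2a, the catalytic subunit, had 44.8 and 45.1 CPM in sgArid1a, against 37.6 and 40.2 CPM in sgScr, a log2 difference of 0.24 ± 0.06 (SE; edgeR adjusted p = 0.0054). Rnaseh1 had 19.6 and 22.5 CPM in sgArid1a, against 18.3 and 19.0 CPM in sgScr, a log2 difference of 0.21 ± 0.075 (SE; edgeR adjusted p = 0.028).

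Samhd1 had 150.2 and 150.0 CPM in sgArid1a, against 187 and 193 CPM in sgScr. It fell by 0.31 on the log2 scale, with an SE of 0.06 (edgeR adjusted p = 0.00057). Adar had 25.6 and 26.1 CPM in sgArid1a, against 29.4 and 31.5 CPM in sgScr, and fell by 0.21 on the log2 scale, with an SE of 0.07 (edgeR adjusted p = 0.016). Of the 7 genes, 6 passed the filter on low counts and were tested, 4 were higher and 2 lower. Over all genes tested, 54.3% were called (28.1% higher, 26.3% lower), so passing the test in this comparison sets the 6 apart little.

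**Figure D1:**
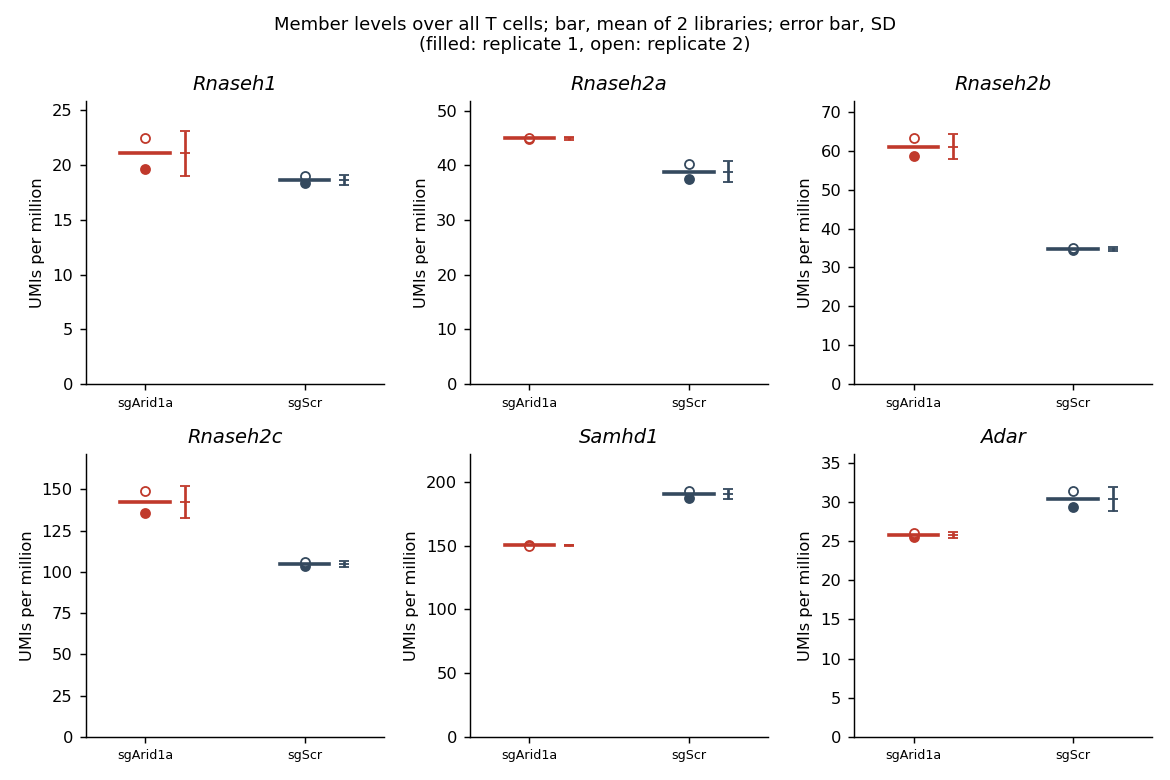
CPM over all T cells for 6 genes in each library; the vertical axes give CPM and start at 0, with sgArid1a to the left of sgScr, the bars the means of 2 libraries and the error bars the SD. Rnaseh2b sits at 58.8 and 63.4 CPM in sgArid1a and at 34.4 and 35.1 CPM in sgScr, while Samhd1 sits lower in sgArid1a than in sgScr.

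The calls on Rnaseh1, Rnaseh2a, Samhd1 and Adar were less firm than those on Rnaseh2b and Rnaseh2c. Cells with a Trbv13-1 or Trbv20 receptor segment made up 15.3 and 16.7% of sgArid1a T cells, against 8.10 and 8.03% of sgScr T cells. Among the sgArid1a cells of these segments 46.6 and 45.0% were in cycle, against 7.44 and 9.06% of such cells in sgScr. Without these cells Rnaseh2b differed by log2 0.51 and Rnaseh2c by log2 0.34, both still called. Samhd1 then stood at log2 -0.094 (edgeR adjusted p = 0.25), Adar at log2 -0.089 (edgeR adjusted p = 0.31), Rnaseh1 at log2 0.18 (edgeR adjusted p = 0.087) and Rnaseh2a at log2 0.15 (edgeR adjusted p = 0.089). Leaving out sgScr replicate 1 ended the calls on Rnaseh1, Rnaseh2a and Adar, leaving out sgScr replicate 2 ended those on Rnaseh1 and Adar, and leaving out sgArid1a replicate 2 ended that on Rnaseh1. DESeq2 called neither Rnaseh1 (adjusted p = 0.11) nor Adar (adjusted p = 0.085). Without cells with 2 or more Trbv segments, a sign of doublets, Rnaseh1 was at log2 0.19 (edgeR adjusted p = 0.055). When the clusters described further on were weighted alike in every library, the log2 differences were 0.13 for Rnaseh2b, 0.17 for Rnaseh2c, -0.020 for Rnaseh1, -0.011 for Rnaseh2a, 0.011 for Samhd1 and -0.099 for Adar, with no test. In sums over mixed cells, a different share of cell states and a different level per cell cannot be told apart. Summed NK cell markers stood at 37.4 to 44.3 CPM in sgArid1a and 14.2 to 16.7 CPM in sgScr (5 markers), and CD4 or regulatory T cell markers at 101 to 111 CPM in sgArid1a and 52.7 to 61.7 CPM in sgScr (4 markers). B cell markers stood at 123 to 131 CPM in sgArid1a and 157.0 to 157.5 CPM in sgScr (6 markers). Their part in these group differences was not tested.

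Trex1, the cytosolic DNA exonuclease, was listed with 1 and 4 UMIs in sgArid1a and 0 and 1 UMIs in sgScr. The 0 in sgScr replicate 1 allows up to 0.0843 CPM. All 1147 exon bases of Trex1 (chr9:109057933-109059734, minus strand, GRCm38, GENCODE M21) lie within exons of Atrip on the same strand. Atrip, a partner of the checkpoint kinase ATR, had 10.3 and 11.1 CPM in sgArid1a and 13.7 and 11.9 CPM in sgScr, and no source used here says how the authors' counting divided reads between these genes. The Trex1 level is therefore not interpretable from these counts. Of the other genes, Rnaseh1 and Samhd1 share no exon bases with another gene, Rnaseh2a shares at most 339 with a neighbour (Prdx2 on the opposite strand and Gm49661 on the same strand, which had 0 UMIs), Rnaseh2c shares 426 with Kat5, Adar 1365 with Chrnb2 and Rnaseh2b 66 with Dleu7, all 3 on the opposite strand. Prdx2, a peroxiredoxin, averaged 271 CPM in sgArid1a and 178 CPM in sgScr. Without strand in the counting, reads of such pairs could not be told apart.

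Cells were split by the share of their UMIs in S and G2/M phase gene lists that hold none of the 7 genes. At a threshold of 44.2 list UMIs per 10000, set by Otsu's method, 5305 T cells were in cycle: 18.7 and 17.6% in sgArid1a, against 6.62 and 7.80% in sgScr. Within 0.15 log10 units of the threshold lay 6423 cells, 16.8% of all. In-cycle cells were deeper, with median UMIs per cell of 7370 and 14069 in sgArid1a and 9876 and 8144.5 in sgScr. Out-of-cycle cells had medians of 2212 and 3648 in sgArid1a and 3697 and 3552 in sgScr. The comparison of in-cycle with out-of-cycle cells within each library tested cycle with the library as a block. These classes may also differ in cell state. Among the clusters described further on, the cycling cluster 7 also raised 7 of 9 terminally exhausted markers. Clusters 6 and 10 raised none of the S or G2/M phase markers. They had Samhd1 at 98.0 and 65.8 CPM and Rnaseh2b at 58.0 and 45.5 CPM (means of 4 libraries). The part of cell state in the cycle differences was not tested.

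As a share of UMIs, the RNase H2 genes rose and Samhd1 and Adar fell in cycling cells. Rnaseh2b had 105 and 109 CPM in cycle in sgArid1a and 104 and 98.6 CPM in cycle in sgScr, against 26.4 and 29.0 CPM out of cycle in sgArid1a and 20.1 and 21.1 CPM out of cycle in sgScr. It was 3.98 and 3.78 times as high in cycle as out of cycle in sgArid1a and 5.20 and 4.67 times as high in sgScr, a log2 difference of 1.97 ± 0.07 (SE; edgeR adjusted p = 1.16e-08). Rnaseh2c had 178 and 196 CPM in cycle in sgArid1a and 167 and 168 CPM in cycle in sgScr, against 106 and 114 CPM out of cycle in sgArid1a and 90.4 and 92.8 CPM out of cycle in sgScr, log2 0.68 ± 0.04 (SE; edgeR adjusted p = 5.0e-07). Every in-cycle value of both genes stood above every out-of-cycle value, as was also so for Rnaseh2a and Rnaseh1. Rnaseh2a had 60.5 and 60.3 CPM in cycle in sgArid1a and 56.1 and 55.8 CPM in cycle in sgScr, against 33.8 and 33.7 CPM out of cycle in sgArid1a and 33.8 and 36.8 CPM out of cycle in sgScr, log2 0.63 ± 0.06 (SE; edgeR adjusted p = 1.49e-05). Rnaseh1 changed least, with 23.8 and 26.3 CPM in cycle in sgArid1a and 21.8 and 22.5 CPM in cycle in sgScr, against 16.7 and 19.6 CPM out of cycle in sgArid1a and 17.6 and 18.2 CPM out of cycle in sgScr, log2 0.27 ± 0.07 (SE; edgeR adjusted p = 0.0047).

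Samhd1 had 72.8 and 74.6 CPM in cycle in sgArid1a and 76.5 and 99.0 CPM in cycle in sgScr, against 204 and 206 CPM out of cycle in sgArid1a and 210 and 214 CPM out of cycle in sgScr. It fell by 1.53 on the log2 scale, with an SE of 0.06 (edgeR adjusted p = 2.73e-08), in 4 of 4 libraries. Adar fell by 0.68 on the log2 scale, with an SE of 0.06 (edgeR adjusted p = 4.69e-06), with 20.5 and 19.0 CPM in cycle in sgArid1a and 23.2 and 23.7 CPM in cycle in sgScr, against 29.1 and 31.4 CPM out of cycle in sgArid1a and 30.6 and 33.2 CPM out of cycle in sgScr. Of all genes tested 72.9% were called (35.7% higher, 37.3% lower), against 6 of 6 members tested. Once 35662 cells were thinned to 1500 UMIs and classed anew (2524 were too shallow), Samhd1 differed by log2 -0.69 and Rnaseh2b by log2 1.57, both called, and Adar and Rnaseh2c also stayed called, while Rnaseh2a (log2 0.22, edgeR adjusted p = 0.075) and Rnaseh1 (log2 0.29, edgeR adjusted p = 0.099) did not. Counted as UMIs per cell, the median gene had a log2 ratio of 1.67 in cycle over out of cycle, Rnaseh2b 3.70, Adar 1.05 and Samhd1 0.20, with no test. Per cell, Samhd1 and Adar thus did not fall, but rose less than the median gene.

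**Figure D2:**
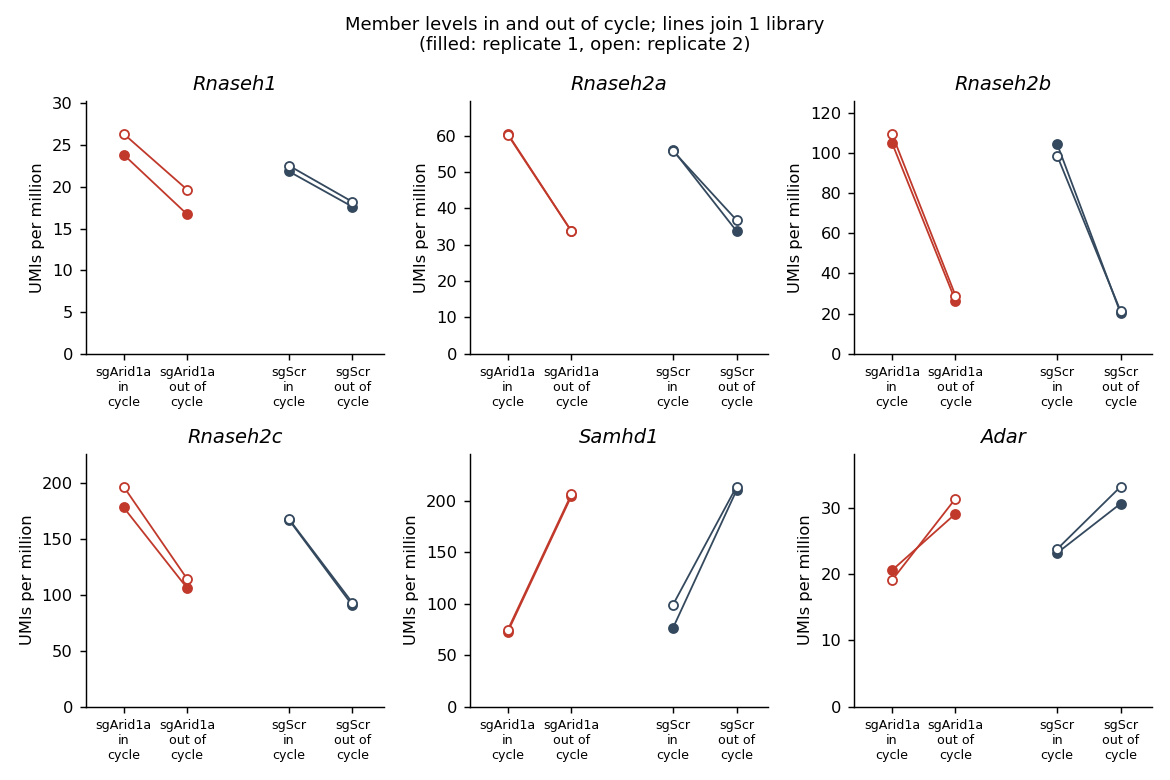
CPM of 6 genes in cells in and out of cycle, with each line joining the values of 1 library, in-cycle cells at its left end, on vertical axes that start at 0. Rnaseh2b falls along each line while Samhd1 and Adar climb, by the same pattern in all 4 libraries.

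The composition of the RNase H2 transcripts differed with cycle. Of the UMIs of Rnaseh2a, Rnaseh2b and Rnaseh2c together, Rnaseh2b made up 30.6 and 29.9% in cycle in sgArid1a and 31.9 and 30.6% in cycle in sgScr. Out of cycle it made up 15.9 and 16.4% in sgArid1a and 13.9 and 14.0% in sgScr. Over all T cells the Rnaseh2b share was 24.6 and 24.6% in sgArid1a, against 19.6 and 19.3% in sgScr. The Rnaseh2a share was 18.7 and 17.5% in sgArid1a, against 21.4 and 22.1% in sgScr. These shares describe transcripts and not subunits of the complex, and were not tested.

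In-cycle cells were split into S-weighted and G2/M-weighted cells by which list held the larger share of their UMIs. Against out-of-cycle cells, 4 of the 6 genes tested were higher and 2 lower in each phase, where 68.1% and 74.7% of all genes tested were called for S-weighted cells (33.8% higher, 34.3% lower) and G2/M-weighted cells (35.9% higher, 38.8% lower). Rnaseh1 in G2/M-weighted cells lost its call (log2 0.18, edgeR adjusted p = 0.047) without sgArid1a replicate 1 (adjusted p = 0.22) or sgArid1a replicate 2 (adjusted p = 0.37). Between the phases, 2 of 6 members were higher and 1 lower in S-weighted cells, where 15.9% of all genes were called (7.74% higher, 8.17% lower). Rnaseh2a was higher in S-weighted cells, with 78.7 and 64.4 CPM in sgArid1a and 65.7 and 58.6 CPM in sgScr, than in G2/M-weighted cells, with 54.9 and 58.9 CPM in sgArid1a and 53.0 and 54.9 CPM in sgScr (log2 0.30 ± 0.09 SE; edgeR adjusted p = 0.029). Rnaseh1 was also higher in S-weighted cells (log2 0.31 ± 0.10 SE; edgeR adjusted p = 0.041), though no call on it held when any 1 library was left out (adjusted p 0.060 to 0.21). Rnaseh2c was lower in S-weighted cells (log2 -0.23 ± 0.05 SE; edgeR adjusted p = 0.0070), and without sgArid1a replicate 1 its adjusted p was 0.054. Rnaseh2a lost its call without sgArid1a replicate 1 or without sgScr replicate 1. Rnaseh2b (log2 0.025 ± 0.070 SE), Samhd1 (log2 0.018 ± 0.071 SE) and Adar (log2 -0.074 ± 0.091 SE) were not called between phases.

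The group comparison was repeated within out-of-cycle and in-cycle cells. Each of these classes still mixes cell states. Cluster 6, described further on and among the highest in Rnaseh2b, held 10.2 and 10.2% of all sgArid1a T cells, against 4.64 and 5.06% of sgScr T cells. Mki67, a gene of the G2/M list, had 7.76 and 6.79 CPM out of cycle in sgArid1a, against 3.12 and 5.89 CPM in sgScr. The group comparison within each class was not repeated without cells near the cycle threshold. The part of this mix and of such remaining cycle signal in the differences below was not tested. Out of cycle, Rnaseh2b was higher in sgArid1a by log2 0.47 ± 0.07 (SE; edgeR adjusted p = 0.00031) and Rnaseh2c by log2 0.31 ± 0.06 (SE; edgeR adjusted p = 0.0017). These were 2 of 6 members tested, none of them lower, where 36.9% of all genes were called (19.6% higher, 17.2% lower), and both calls held with each library left out. Samhd1 differed by log2 -0.0024 ± 0.061 (SE; edgeR adjusted p = 0.98), Adar by log2 -0.032 ± 0.065, Rnaseh2a by log2 -0.023 ± 0.067 and Rnaseh1 by log2 0.074 ± 0.080, none of them called. In cycle, Rnaseh2c alone of the 6 was called, at log2 0.26 ± 0.08 (SE; edgeR adjusted p = 0.036), where 13.2% of all genes were called (7.04% higher, 6.17% lower). It was no longer called when sgArid1a replicate 2 (adjusted p = 0.18), sgScr replicate 1 (0.076) or sgScr replicate 2 (0.27) was left out, nor by DESeq2 (0.0505). Rnaseh2b in cycle had a difference of log2 0.18 ± 0.09 (SE; edgeR adjusted p = 0.17).

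The test of the difference itself, the group effect in cycle minus that out of cycle, called Rnaseh2a at log2 0.26 ± 0.08 (SE; edgeR adjusted p = 0.048) and Rnaseh2b at log2 -0.27 ± 0.08 (SE; edgeR adjusted p = 0.027). That is 1 member higher and 1 lower, where 9.7% of all genes were called (2.82% higher, 6.88% lower). The call on Rnaseh2a held without sgScr replicate 1 and that on Rnaseh2b without sgScr replicate 2; leaving out any other library ended the call (adjusted p 0.18 to 0.35 for Rnaseh2a, 0.11 to 0.32 for Rnaseh2b). DESeq2 called neither (adjusted p = 0.71 and 0.55). Rnaseh2a was not called without cells near the cycle threshold (edgeR adjusted p = 0.088), nor Rnaseh2b with no filter on low counts (edgeR adjusted p = 0.058). Samhd1 was not called in this test (log2 -0.11 ± 0.077 SE; edgeR adjusted p = 0.42), but was called without sgScr replicate 1 (log2 -0.27, edgeR adjusted p = 0.042). Group share of in-cycle cells and cell depth moved with these results, and their part in them was not tested.

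**Figure D3:**
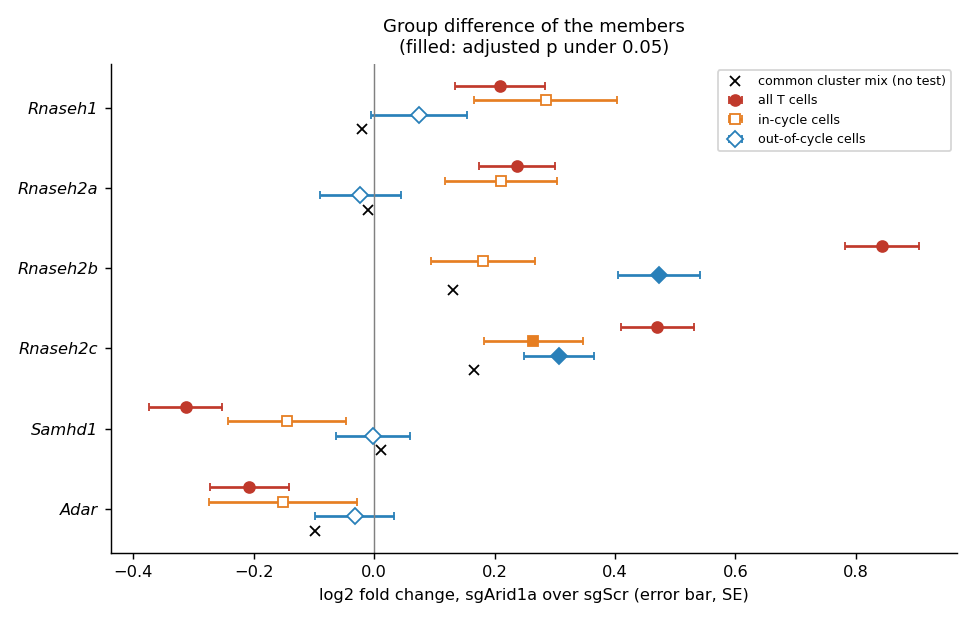
The log2 fold change of sgArid1a over sgScr for 6 genes over all T cells, in-cycle cells and out-of-cycle cells, with SE bars, and crosses for the value at a common mix of clusters. The filled marks are called, and Samhd1 lies at log2 -0.31 over all T cells and log2 -0.0024 out of cycle.

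Levels across cell states were read over 13 clusters made without the 7 genes, and are a description with no test. Their names rest on marker lists and end in "-like". Rnaseh2b was highest in cluster 7 (G2/M phase-like, 3031 cells, also with S phase markers) at 113 ± 1.9 CPM (SD, n = 4 libraries), and no other cluster's libraries reached its range. It was next highest in cluster 6 (terminally exhausted-like) at 58.0 ± 10.9 CPM and in cluster 10 (early activated-like) at 45.5 ± 9.1 CPM, whose ranges overlapped. Rnaseh2c was highest in cluster 7 at 191 ± 12.3 CPM and above the range of the next, cluster 8 (effector-like) at 133 ± 13.5 CPM. Rnaseh2a stood at 60.2 ± 3.1 CPM in cluster 7, and its range overlapped that of cluster 11 (interferon-stimulated-like) at 42.7 ± 9.9 CPM. Rnaseh1 ranged from 23.8 ± 1.5 CPM in cluster 7 to 10.9 ± 8.4 CPM in cluster 13, with neighbouring ranges that overlapped throughout.

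Samhd1 was highest in cluster 11, at 527 ± 28.4 CPM (SD, n = 4 libraries), and lowest in clusters 7 (63.4 ± 6.8 CPM), 10 (65.8 ± 9.4 CPM) and 6 (98.0 ± 9.4 CPM). Clusters 7 and 10 overlapped each other, while cluster 6 stood above both and below every other cluster. In the 3 naive or central memory-like clusters, 2, 3 and 5, Samhd1 had 267, 203 and 208 CPM. Adar was highest in clusters 12 and 11, at 84.9 ± 58.1 and 84.6 ± 14.3 CPM; cluster 12 is small (307 cells), unnamed and shallow, and the next cluster, 8, had 37.0 ± 6.6 CPM. By the likeness of log2 levels over the 13 clusters, Samhd1 was closest to Ifi208, Ifit1bl1 and Dtx3l (Pearson's r 0.97, 0.95 and 0.95), Adar to Trim21, Parp14 and Samd9l (0.97, 0.97 and 0.96), and Rnaseh2b to Hdac3, Ppih and Emc8 (0.98, 0.98 and 0.97). Rnaseh2c was closest to Lsm4, Zfp706 and Ndufa5, Rnaseh2a to Tubb4b, Parp2 and Uchl5, and Rnaseh1 to Osgep, Psmd6 and Eny2. The clusters share their 4 libraries, and depth differs between them.

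**Figure D4:**
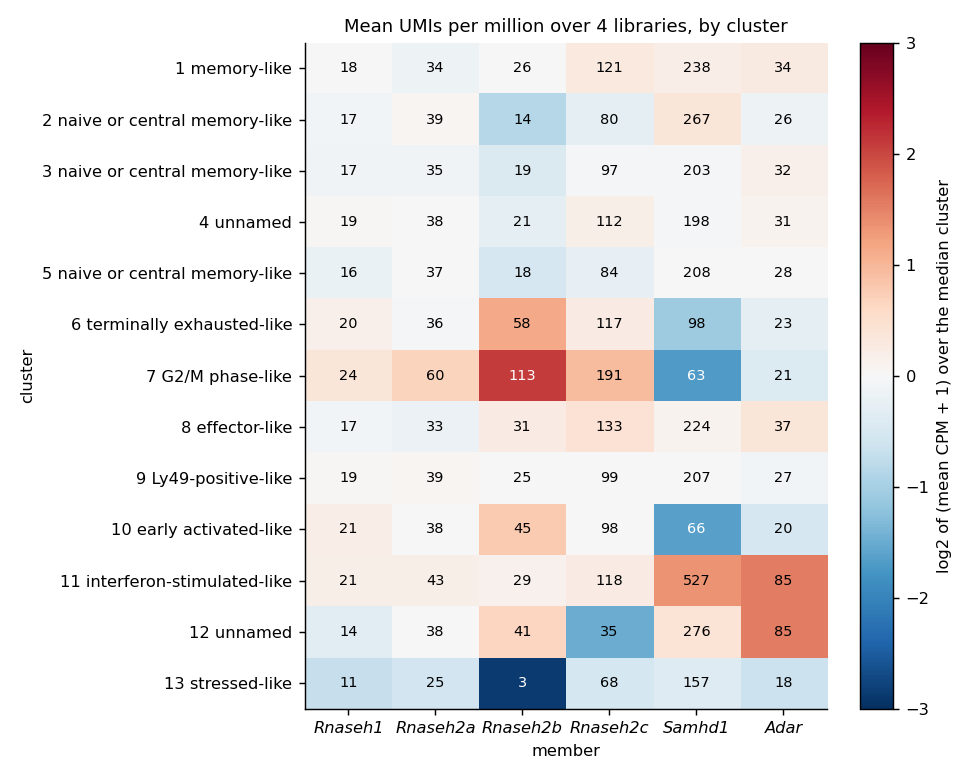
Mean CPM over 4 libraries, printed for each cluster (rows) and gene (columns), with colour giving the log2 ratio of CPM + 1 to the median cluster. Rnaseh2b peaks in cluster 7 at 113 CPM and Samhd1 in cluster 11 at 527 CPM.

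Within the 12 clusters holding at least 50 cells of every library, Rnaseh2b was called higher in sgArid1a in cluster 6, with 67.8 and 66.1 CPM, against 45.1 and 53.0 CPM in sgScr (log2 0.50 ± 0.11 SE; edgeR adjusted p = 0.0094). There Rnaseh2c had 121 and 135 CPM in sgArid1a, against 108 and 104 CPM in sgScr (log2 0.34 ± 0.09 SE; edgeR adjusted p = 0.029). In cluster 2 Rnaseh2c had 90.2 and 86.9 CPM in sgArid1a, against 71.0 and 73.1 CPM in sgScr (log2 0.35 ± 0.10 SE; edgeR adjusted p = 0.043). The background was 7.69% of genes in cluster 6 (4.18% higher) and 3.34% in cluster 2 (2.4% higher). In the other clusters it was 2.36% in cluster 1, 0.98% in cluster 3, 0.469% in cluster 4, 1.23% in cluster 5, 6.47% in cluster 7, 2.13% in cluster 9, 3.01% in cluster 10, 0.466% in cluster 11 and 5.48% in cluster 12. The sign for Rnaseh2c was positive in 11 of 11 clusters tested, with log2 values between 0.044 and 0.42, and 2 of the 11 were called. These clusters share the same 4 libraries, so their signs are not independent. Samhd1 was called in cluster 8, with 273 and 235 CPM in sgArid1a, against 180 and 206 CPM in sgScr (log2 0.44 ± 0.11 SE; edgeR adjusted p = 0.022), where 2.47% of genes were called (1.64% higher). Rnaseh1, Rnaseh2a and Adar were called by edgeR in 0 of 11 clusters tested, and at an unadjusted p under 0.05 also in 0; no other tool was run within clusters. Leaving out sgScr replicate 1 ended all 4 of these calls, and leaving out sgScr replicate 2 ended those on Rnaseh2c in both clusters and on Samhd1. The call on Rnaseh2c in cluster 2 also ended without sgArid1a replicate 1 (adjusted p = 0.054) or sgArid1a replicate 2 (adjusted p = 0.055).

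Out-of-cycle cells were next split by a list of 28 type I interferon-stimulated genes, none of them a member. The top 10% of each library, among cells of at least 1000 UMIs, were called list-high. Samhd1 and Adar were higher in list-high cells than in the others and the RNase H genes were not called. Samhd1 had 432 and 438 CPM in list-high cells of sgArid1a and 298 and 326 CPM in those of sgScr, against 181 and 183 CPM in other cells of sgArid1a and 200.4 and 201.1 CPM in those of sgScr (log2 0.93 ± 0.09 SE; edgeR adjusted p = 3.12e-07). Adar had 57.2 and 55.4 CPM in list-high cells of sgArid1a and 48.1 and 54.6 CPM in those of sgScr, against 25.9 and 28.9 CPM in other cells of sgArid1a and 28.7 and 30.7 CPM in those of sgScr (log2 0.88 ± 0.07 SE; edgeR adjusted p = 7.59e-08). These 2 of 6 members compare with 8.23% of all genes called (4.81% higher, 3.42% lower). Rnaseh1 and the RNase H2 genes had log2 differences between 0.021 and 0.10.

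For Samhd1 the rise with the interferon list differed between the groups. The ratio of list-high to other cells was larger in sgArid1a, and the test of the difference gave log2 0.66 ± 0.06 (SE; edgeR adjusted p = 1.44e-08), where 1.78% of all genes were called (1.03% higher, 0.747% lower). It held with each library left out (log2 0.59 to 0.73). For Adar the difference was log2 0.25 ± 0.12 (SE; edgeR adjusted p = 0.50). This comparison was added after the values of the list-high cells had been seen. The list itself summed to 7678 and 7968 CPM in list-high cells of sgArid1a and to 4240 and 4265 CPM in list-high cells of sgScr, and to 1601 and 1664 CPM in other cells of sgArid1a and 1016 and 997 CPM in other cells of sgScr. The list-high class thus stands at a higher list level in sgArid1a, and its part in the Samhd1 difference was not tested.

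**Figure D5:**
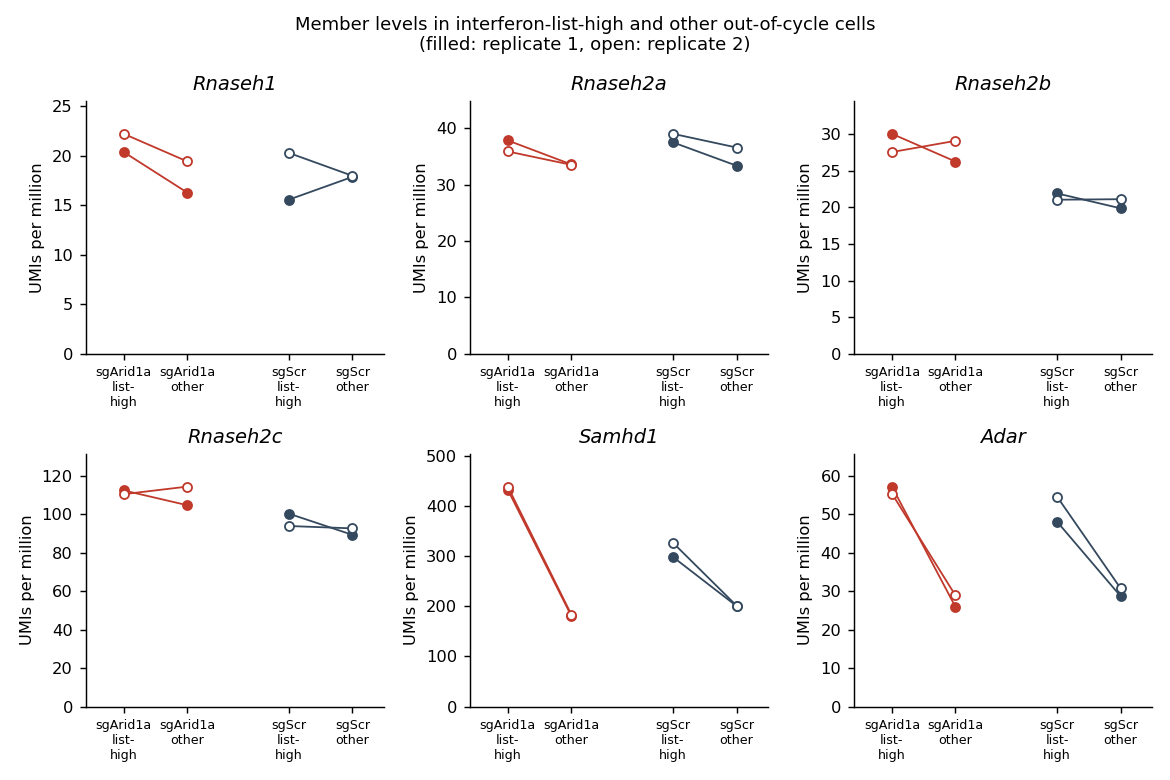
CPM of 6 genes in interferon-list-high and other out-of-cycle cells, with each line joining 1 library. Samhd1 stands at 432 and 438 CPM in list-high sgArid1a cells and at 298 and 326 CPM in list-high sgScr cells, while the RNase H2 genes were not called between the classes.

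The genes that work beside these 7 were read from lists chosen with earlier results of these data known. Over all T cells the median log2 difference of sgArid1a over sgScr was -0.015 for all genes tested, of which 28.1% were called higher and 26.3% lower. Among genes of ribonucleotide excision and Okazaki fragment maturation, 16 of 18 were higher and 1 lower in sgArid1a (median 0.76), among them the clamp loader subunits Rfc4 (log2 0.99) and Rfc5 (log2 0.90) and the ligase Lig1 (log2 0.997). Of nucleotide supply genes 10 of 14 were higher and 2 lower (median 0.89), with thymidine kinase Tk1 at log2 1.36, thymidylate synthase Tyms at log2 1.27 and the dUTPase Dut at log2 1.19. Of the Fanconi and BRCA list 10 of 15 were higher and 1 lower (median 0.58), with Bard1 at log2 1.004 and Fancd2 at log2 0.98. R-loop helicases were called at about the share of all genes, with 6 of 20 higher and 5 lower; Ddx1 (log2 0.62) and Brip1 (log2 0.98) were higher. For genes of R-loop prevention 7 of 18 were higher and 3 lower, among them the mRNA export adaptor Alyref (log2 0.83), Bub3 (log2 0.46) and Atad5 (log2 0.61). Every gene named in this paragraph was called by the edgeR test, with adjusted p values of at most 9.55e-05.

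Out of cycle, Fanconi and BRCA genes were called higher in 1 of 14 and lower in 0 (median -0.20), R-loop helicases in 1 of 19 and 6, excision and Okazaki genes in 9 of 17 and 1 (median 0.18), and nucleotide supply genes in 8 of 14 and 1 (median 0.30). For all genes tested this median was -0.015, with 19.6% called higher and 17.2% lower. Interferon-stimulated genes were higher in 24 of 27 and lower in 0 out of cycle (median 0.85), and over all T cells in 18 of 27 and 1 (median 0.43), with Isg15 at log2 1.36, Rtp4 at log2 0.91 and Ifit1 at log2 0.96. Of 14 nucleic acid sensing genes tested over all T cells 7 were higher and 2 lower; the Z-nucleic acid sensor Zbp1 (log2 0.70) and Tmem173, the gene of STING (log2 0.32), were higher and the kinase gene Ikbke (log2 -0.83) lower. Other nucleases were higher in 3 of 19 and lower in 6 (Isg20 log2 0.76, Apex1 log2 0.46, Rnaset2a log2 -0.46), and double-stranded RNA binding and editing genes in 3 of 11 and 2 (Prkra log2 0.46, Tarbp2 log2 0.24, Stau1 log2 -0.32), against 28.1% higher and 26.3% lower over all genes. All these named genes were called by edgeR over all T cells, with adjusted p values of at most 0.011. Rnaset2a has a near-identical copy, Rnaset2b, and its count is uncertain.

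In cycle against out of cycle, 17 of 18 excision and Okazaki genes were higher and 1 lower (median log2 2.47, against -0.039 for all genes tested, of which 35.7% were called higher and 37.3% lower), with the flap nuclease Fen1 at log2 2.53, Rfc4 at log2 2.47 and the DNA polymerase alpha subunit Pola1 at log2 2.58. Fanconi and BRCA genes were higher in 13 of 15 and lower in 1, with Brca2 at log2 2.96 and Fancd2 at log2 6.33. Nucleotide supply genes were higher in 11 of 14 and lower in 3; the ribonucleotide reductase genes Rrm1 (log2 3.22) and Rrm2 (log2 6.08) were among those higher. Samhd1, which breaks nucleotides down, made up a lower share of UMIs in the same cells. R-loop helicases were higher in 11 of 20 and lower in 5 (Brip1 log2 4.71, Pif1 log2 6.17, Ddx1 log2 1.34), and R-loop prevention genes in 9 of 18 and 3 (Alyref log2 1.87, Atad5 log2 2.73, Bub3 log2 0.90). Interferon-stimulated genes were lower in 27 of 27, with Ifit1 at log2 -2.72, Rtp4 at log2 -2.07 and Ifi47 at log2 -1.26.

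Nucleic acid sensing genes were higher in cycle in 3 of 14 and lower in 8. The DNA sensor Cgas was higher in cycle at log2 1.25, and the RNA sensor gene Ddx58 (log2 -1.14) and Ikbke (log2 -1.50) were lower. Other nucleases were higher in 7 of 19 and lower in 7 (Rbbp8 log2 1.30, Pld3 log2 -0.64, Rnaset2b log2 -0.63), and double-stranded RNA binding and editing genes in 7 of 11 and 1 (Ilf2 log2 0.66, Tarbp2 log2 0.47). All genes named for the cycle contrast were called, with edgeR adjusted p values of at most 3.01e-05. In list-high cells, sensing genes were higher in 7 of 14 and lower in 0, against 4.81% higher and 3.42% lower over all genes tested.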

How the data were processed

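The authors deposited whole-number UMI counts per gene and cell, made with Cell Ranger 6.0.1 per the file headers; Cell Ranger 3.0.2, Seurat and mm10 are named in the submitters' processing notes, and no source used here names the annotation release. Per the labels' protocols, the libraries are 10x Genomics 5-prime. Members and lists were chosen with earlier results of these data known.

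Of 39473 barcodes, 38316 passed a minimum of 500 genes and a ceiling of 10% mitochondrial UMIs. They were clustered with scanpy 1.11.5 and Leiden (leidenalg 0.10.2, resolution 0.8) without the 7 genes, and 130 cells of a B-like cluster were left out. Doublets were not called; cells with 2 or more Trbv segments (6.73 and 13.2% of sgArid1a, 11.1 and 10.6% of sgScr T cells) were removed as an alternative. Counts were summed per library and class and tested with edgeR 4.0.16 (TMM, filterByExpr, quasi-likelihood test, Benjamini-Hochberg over all genes, threshold 0.05); DESeq2 1.42.0 was an alternative. Other alternatives were RLE factors, no filter on low counts, a replicate block, each library left out, a looser cell filter, sums thinned to the smallest total, cells thinned to 1500 UMIs, cells near the cycle threshold left out, cycle by cluster and a top 5% interferon class. Contrasts within libraries had the library as a block. The fits were also run on simulated counts with known changes in a small part of the genes. There, 11.3% of calls were false for the group comparison over all T cells and 16.7% for in cycle against out of cycle. For the group effect in cycle minus out of cycle, 5.41% were false. The first and second shares lie above the threshold of 0.05, so calls with adjusted p close to it are less firm. Same-numbered libraries did not deviate together (r = -0.048 over genes). Libraries of 1 group differed beyond counting noise (chi-square per degree of freedom 20.5 in sgArid1a and 4.76 in sgScr). Besides the 7 genes and Arid1a, the text names the 3 genes of smallest p per list, between groups and by cycle, and the 3 most alike genes per member (log2 of CPM + 1 over clusters, genes of at least 20 CPM); some genes that this rule names are not reported here. The floor given for Trex1 covers counting error only.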

Additional observations from a re-analysis of the deposited data

Results flagged for a closer look

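The group effect on Rnaseh2a differed between cells in and out of cycle by log2 0.26, and that on Rnaseh2b by log2 -0.27, both by an interaction test in edgeR. Both calls ended under DESeq2 and with 3 of 4 libraries left out in turn. That on Rnaseh2a also ended without cells near the cycle threshold, and that on Rnaseh2b with no filter on low counts. The group effect on Samhd1 differed between interferon-list-high and other out-of-cycle cells by log2 0.66, by the same kind of test, and remained called with each library left out and under DESeq2.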

How the results depend on the processing

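Over all T cells, Rnaseh2b and Rnaseh2c kept their direction and call under all 12 tested alternatives, including the replicate block (7017 genes called, against 6947 without it). At a common cluster mix, which had no test, Rnaseh2b stood at log2 0.13, against 0.84 in the main fit, and Rnaseh2c at log2 0.17, against 0.47. Rnaseh1 (log2 -0.020), Rnaseh2a (log2 -0.011) and Samhd1 (log2 0.011) changed sign at this mix. The replicate numbers share only a number: the block gave 4782 calls out of cycle and 1092 in cycle, and Rnaseh2c in cycle then had an adjusted p of 0.060. DESeq2 called 2735 genes out of cycle, 752 in cycle, 364 for the group effect in cycle minus out of cycle, 575 for list-high cells and 65 for the difference of the group effect between list-high and other cells, against 4508, 1474, 1234, 948 and 205 with edgeR. Higher calls made up 70.2% of DESeq2's in cycle and 69.6% for list-high cells, against 53.3% and 58.4% with edgeR; without the filter on low counts the list-high share was 46.4%. Cells thinned to a fixed depth gave 5201 calls by cycle and 525 for list-high cells, against 9278 and 948. Where 1 library was left out, the calls ranged from 2506 to 5839 out of cycle, 366 to 1428 in cycle, 561 to 809 for the cycle interaction, 112 to 270 for the interferon interaction, 917 to 1558 between phases and 1336 to 6191 summed over clusters (3122 with all libraries).

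Values not called with all libraries changed sign, with no call after the change: Samhd1 out of cycle (0.0025 with DESeq2, 0.0026 with RLE factors; -0.036 to 0.036 with 1 library left out), the cycle interaction of Samhd1 without cells near the threshold (0.11; -0.27 to 0.054 with 1 library left out) and of Rnaseh2c with no filter on low counts (0.0070; -0.061 to 0.017), and the list-high difference of Rnaseh2a (-0.16) and Rnaseh2b (-0.28) in thinned cells, and of Rnaseh2b with no filter (-0.0069). With 1 library left out, the log2 values ranged from -0.013 to 0.14 for Rnaseh1, -0.069 to 0.028 for Rnaseh2a and -0.076 to 0.0066 for Adar out of cycle. They ranged from -0.28 to 0.026 for Samhd1 in cycle, -0.025 to 0.072 for Rnaseh2b and -0.0074 to 0.057 for Rnaseh2c in list-high cells, and -0.023 to 0.035 for Samhd1 between phases. The cause was not tested. The in-cycle sums rest on 1999 and 2243 cells in sgArid1a and 505 and 558 cells in sgScr.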
